A study of Mus musculus with 8 samples.

Results

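Prefoldin and the phosducin-like proteins are helpers of the chaperonin CCT, and their transcripts were followed here through knockdown of the CCT subunit genes Cct5 and Cct7 in mouse E14 embryonic stem cells. The 9 genes are named members of those families: the 6 prefoldin subunit genes Pfdn1, Pfdn2, Vbp1, Pfdn4, Pfdn5 and Pfdn6, and the 3 phosducin-like genes Pdcl, Pdcl3 and Txndc9. They are 9 of the 19896 gene identifiers listed in both deposited expression tables. The list was set by family name and not by a measured value, though earlier results of these data were known when it was chosen. All 9 were listed in all 8 libraries and passed the filter on low values in every comparison.

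The study held 4 groups of 2 libraries each, all from E14 cells, a mouse embryonic stem cell line grown mainly with serum and leukaemia inhibitory factor (LIF). Cct5 KD and Cct7 KD cells carried a lentiviral, doxycycline-inducible short hairpin against Cct5 or Cct7, in a vector with puromycin resistance, and each had its own empty-vector control group, Cct5 KD Ctr and Cct7 KD Ctr. All 4 groups, the controls included, received the viral vector, 14 days of puromycin at 0.5 µg/ml and 2 days of doxycycline at 2 µg/ml, so drug and vector are shared by both sides of each comparison. Positive clones were picked after selection. The labels do not say how many clones or separate cultures stand behind each pair of libraries, so p-values measure the spread between those libraries, which may be technical.

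CCT is a double-ring folding machine of the cytosol whose best known substrates are actin, tubulin and WD40 beta propellers. Prefoldin is a jellyfish-shaped complex of 2 alpha-type subunits (Vbp1, also called prefoldin subunit 3, and Pfdn5) and 4 beta-type subunits (Pfdn1, Pfdn2, Pfdn4 and Pfdn6), which binds nascent actin and tubulin and hands them to CCT. The phosducin-like proteins bind CCT together with its substrate. Pdcl (PhLP1) works with CCT in folding G protein beta subunits and joining them to gamma subunits, Pdcl3 (PhLP2A) is a partner in actin and tubulin folding, and Txndc9 (PhLP3) binds CCT and slows its folding cycle.

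The values are FPKM, fragments scaled by gene length and library size, as deposited. The targeted gene was checked first: Cct7 stood at 269 and 280.1 FPKM in its controls and 14.4 and 17.8 FPKM in Cct7 KD, and Cct5 at 368 and 367 FPKM in its controls and 70.8 and 73.4 FPKM in Cct5 KD. Summed FPKM ran from 471748 to 496748 in 6 libraries and was 745912 and 744177 in Cct5 KD. Those 2 Cct5 KD libraries were also not independent of Cct7 KD: for 19881 of 19896 shared identifiers no Cct5 KD value was below 1.125 times its same-numbered Cct7 KD counterpart, and this multiple accounted for 71.3% of all FPKM in both Cct5 KD libraries. The remainder, Cct5 KD minus 1.125 times Cct7 KD, is therefore given beside the Cct5 KD results for the members and their lists. Its summed FPKM was 214123 and 213575, so its unscaled levels are not on the scale of the controls. Cct5 itself was among the 15 identifiers outside this relation, with 280 and 271 FPKM in Cct7 KD. Its low Cct5 KD values therefore do not have the make-up of the member values in those libraries. They check the label for Cct5 alone.

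Cell identity was checked against marker lists. The 6 stem cell markers (Pou5f1, Sox2, Nanog, Zfp42, Esrrb and Utf1) summed to 1808 to 1885 FPKM in the 4 controls, 407 to 411 FPKM in Cct7 KD and 690 to 701 FPKM in Cct5 KD (232 to 238 FPKM in the remainder), and all 6 fell in both knockdowns. The 6 markers of the 2-cell-like state rose in both as deposited, from sums of 13.0 to 14.5 FPKM in the controls to 91.6 to 94.8 FPKM in Cct7 KD and 104 to 108 FPKM in Cct5 KD. The unscaled remainder held 1.07 and 1.19 FPKM. Scaled by median of ratios, it had 2 of these markers tested and both lower (median log2 change -1.48), against 42.8% of all genes lower. The rise in Cct5 KD was thus not seen in the remainder. Trophoblast markers summed to 25.5 to 27.8 FPKM in the controls and 207 to 209 FPKM in Cct7 KD. They summed to 240 to 242 FPKM in Cct5 KD and 6.76 to 6.83 FPKM in the remainder. Nearly all of the knockdown sums was the keratins Krt8 (104.5 and 107.2 FPKM in Cct7 KD) and Krt18 (101.1 and 100.2 FPKM). Of 3 tested, these 2 were higher and Eomes was lower in each knockdown. In the scaled remainder 2 trophoblast markers were tested, and both were lower (median log2 change -0.38). Cdx2, Elf5 and Gata3 were at most 0.438 FPKM where listed, too low to be tested. Of all genes tested 49.3% were higher and 32.0% lower in Cct7 KD, and 78.0% and 11.3% in Cct5 KD as deposited. Fibroblast markers, of which each table listed 5 of 8, summed to at most 11.6 FPKM in any library. Dcn and Lum were listed in neither table, Postn was not listed for Cct5 KD, and Col3a1 was not listed for Cct7 KD and was at 0 in both Cct5 KD libraries. The part of these marker shifts in the cofactor results was not tested, and in bulk RNA fewer cells of a type and less RNA per cell cannot be told apart.

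In control cells all 9 cofactor transcripts were present, with the prefoldin subunits above the phosducin-like genes. FPKM is per length, so an order between genes rests on the gene lengths used, which are not named. Annotated exon lengths are 3751 to 9102 bases for the phosducin-like genes and 1109 to 2520 bases for the prefoldin genes. The part of length in the order of levels was not tested. In Cct7 KD Ctr the order of FPKM levels was Vbp1, Pfdn6, Pfdn1, Pfdn5, Pfdn2, Pfdn4, Pdcl, Txndc9 and Pdcl3, from 100.2 and 99.8 FPKM for Vbp1 down to 17.4 and 18.2 FPKM for Pdcl3. The Cct5 KD Ctr libraries gave the same order. Neighbours whose libraries overlapped were Pfdn5 and Pfdn2 in Cct7 KD Ctr, and Vbp1 with Pfdn6 and Pfdn2 with Pfdn4 in Cct5 KD Ctr. The highest prefoldin subunit stood at 1.80 and 1.84 times the lowest in the libraries of Cct7 KD Ctr, and 1.502 and 1.66 times in those of Cct5 KD Ctr.

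**Figure D1:**
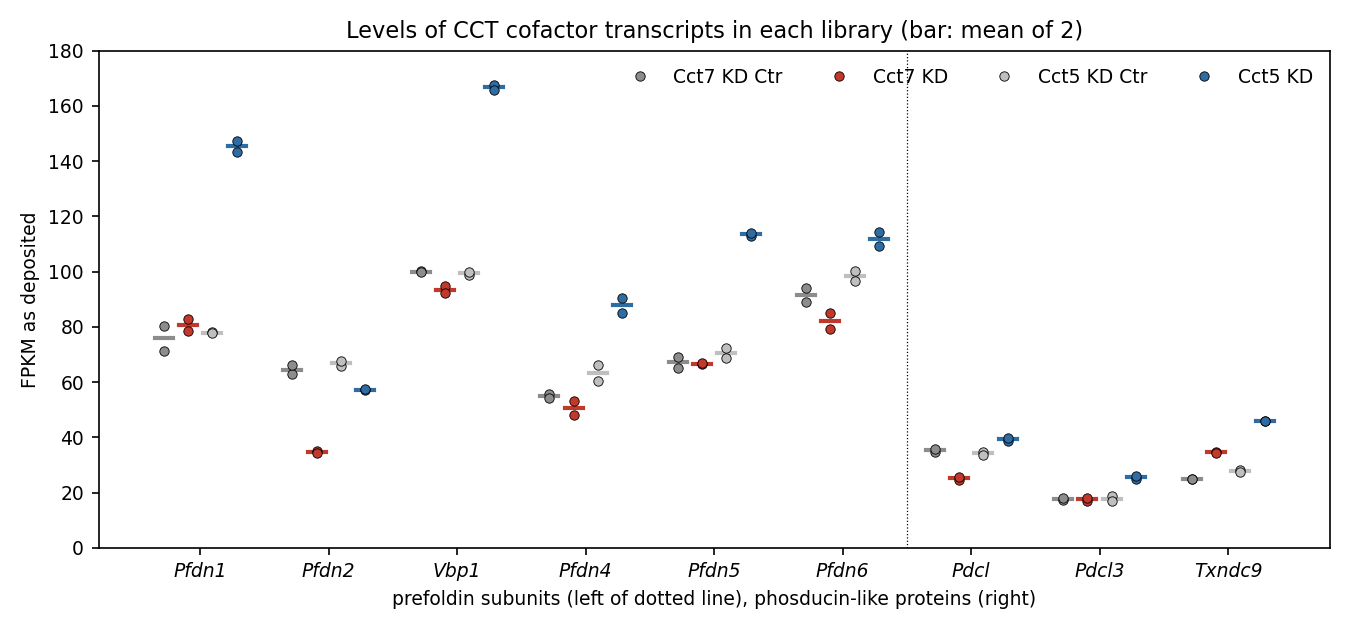
Level of each cofactor transcript in FPKM as deposited (y axis) for the 9 genes (x axis), with 1 point per library and a bar at the mean of 2 libraries in each of the 4 groups. Pfdn2 is lowest in Cct7 KD (35.03 and 34.2 FPKM), and the Cct5 KD libraries, whose FPKM totals are larger, are highest for the other 8 genes.

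The 2 control groups were compared to see how far the members differ where no hairpin does. None of the 9 passed the threshold, an adjusted p under 0.05 from limma with Benjamini-Hochberg adjustment over all genes tested, against a background of 0% of 12762 genes. At an unadjusted p under 0.05 limma gave 2296 genes, 18.0% of those tested, and a fit of all 8 libraries together called 444. Pfdn4 differed most, with 55.6 and 54.2 FPKM in the Cct7 KD Ctr libraries but 66.2 and 60.4 FPKM in those of Cct5 KD Ctr, a log2 difference of 0.20 (limma adjusted p = 0.157). Txndc9 stood at 24.7 and 25.1 FPKM against 28.1 and 27.6 FPKM, a log2 difference of 0.15 (limma adjusted p = 0.135). It passed in the fit of all 8 libraries (limma adjusted p = 0.0281). That fit treats the tied Cct5 KD and Cct7 KD libraries as independent, which limits its p-value and its 444 calls. The 2 control groups did not overlap for 4 of the 9 members, against 51.1% of all genes.

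After knockdown of Cct7 the cofactor transcripts changed in both directions. As deposited, 1 of 9 rose (Txndc9), 4 fell (Pfdn2, Pdcl, Pfdn6 and Vbp1) and 4 did not pass (Pfdn1, Pfdn4, Pfdn5 and Pdcl3), in limma on log2(FPKM + 1). The background was large: 81.4% of 13588 genes passed, 49.3% higher and 32.0% lower, so 5 of 9 members is a smaller share than that of all genes. Members did not overlap between the 2 groups in 6 of 9 cases, against 90.6% of all genes. The median log2 change was -0.10 over the members and 0.15 over all genes. Scaling the libraries by median of ratios moved the median of all genes from 0.15 to -0.07 and the share of higher genes among those changed from 60.6% to 45.7%, and the members then gave 1 higher, 7 lower and 1 not passed, against 37.1% higher and 44.0% lower of all genes (81.0% in all). Pfdn2, Pdcl and Txndc9 kept their direction and their call under every alternative tried for this comparison.

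Pfdn2, a beta-type subunit that is also found in the prefoldin-like complex with Uri1, fell furthest of the 9. It stood at 62.9 and 66.2 FPKM in the controls and 35.03 and 34.2 FPKM in Cct7 KD. Both knockdown libraries lay below all 4 controls of the series, whose lowest was 62.9 FPKM. The level was 53.7% of control, a log2 change of -0.88 (SE 0.0355; limma adjusted p = 1.1e-05), and -1.13 with median-of-ratios scaling. Of all genes tested, 8.65% had a lower log2 change.

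The size of the change in the other beta-type subunits depended on scaling. Pfdn6 stood at 88.9 and 94.0 FPKM in the controls and 79.1 and 84.9 FPKM in Cct7 KD, without overlap, a log2 change of -0.16 (SE 0.0463; limma adjusted p = 0.0233) as deposited and -0.41 (limma adjusted p = 4.6e-04) with median-of-ratios scaling. The as-deposited call was lost without replicate 1 of Cct7 KD (-0.11, adjusted p = 0.101), without replicate 2 of its control (-0.12, adjusted p = 0.0883) and with a common FPKM total (-0.09). Pfdn4 had a log2 change of -0.12 as deposited, with a 95% interval from -0.25 to 0.01, and passed with median-of-ratios scaling (-0.37, limma adjusted p = 0.0010) and without replicate 2 of Cct7 KD (-0.19, adjusted p = 0.0095). Pfdn1 overlapped between groups, at 71.4 and 80.2 FPKM in the controls and 78.5 and 82.7 FPKM in Cct7 KD, with a log2 change of 0.09 and an interval from -0.06 to 0.24. It passed without replicate 2 of the control (0.17, adjusted p = 0.0159), and its direction turned to -0.16 with median-of-ratios scaling.

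Of the alpha-type subunits, Pfdn5, also known as a binding partner of MYC, stood at 65.1 and 69.2 FPKM in the controls and 66.5 and 66.9 FPKM in Cct7 KD. The knockdown libraries lay between the controls, with a log2 change of -0.01 and a 95% interval from -0.10 to 0.08 as deposited; the median-of-ratios value was -0.26 and passed (limma adjusted p = 0.0014). Vbp1, named for its binding to the von Hippel-Lindau protein, stood at 100.2 and 99.8 FPKM against 94.7 and 92.3 FPKM, lower in the knockdown without overlap. Its log2 change was -0.10 (SE 0.0263; limma adjusted p = 0.0174) as deposited and -0.35 (limma adjusted p = 1.4e-04) with median-of-ratios scaling. The as-deposited call was lost without replicate 2 of Cct7 KD (-0.08, adjusted p = 0.105), without replicate 1 of the control (-0.09, adjusted p = 0.0537), and when libraries were scaled to a common FPKM total (-0.03).

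The phosducin-like genes went different ways. Pdcl, the partner of CCT in G beta assembly, stood at 34.9 and 35.7 FPKM in the controls and 24.7 and 25.6 FPKM in Cct7 KD. The knockdown was 71.1% of control with no overlap, a log2 change of -0.48 (SE 0.0341; limma adjusted p = 7.4e-05), and -0.72 with median-of-ratios scaling. Txndc9 went up, from 24.7 and 25.1 FPKM to 34.7 and 34.4 FPKM. Both knockdown libraries lay above all 4 controls of the series, whose highest was 28.1 FPKM. The log2 change was 0.45 (SE 0.0296; limma adjusted p = 5.1e-05), and 0.21 with median-of-ratios scaling. Pdcl3 overlapped between the groups, at 17.4 and 18.2 FPKM and 17.1 and 18.1 FPKM, with a log2 change of -0.01 and a 95% interval from -0.13 to 0.10; the median-of-ratios value was -0.25 and passed.

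The order of levels changed with these shifts. In Cct7 KD the Pfdn2 level was the sixth and overlapped that of Txndc9, which now stood above Pdcl. In the controls Pfdn2 had been the fifth and Pdcl had stood above Txndc9.

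**Figure D2:**
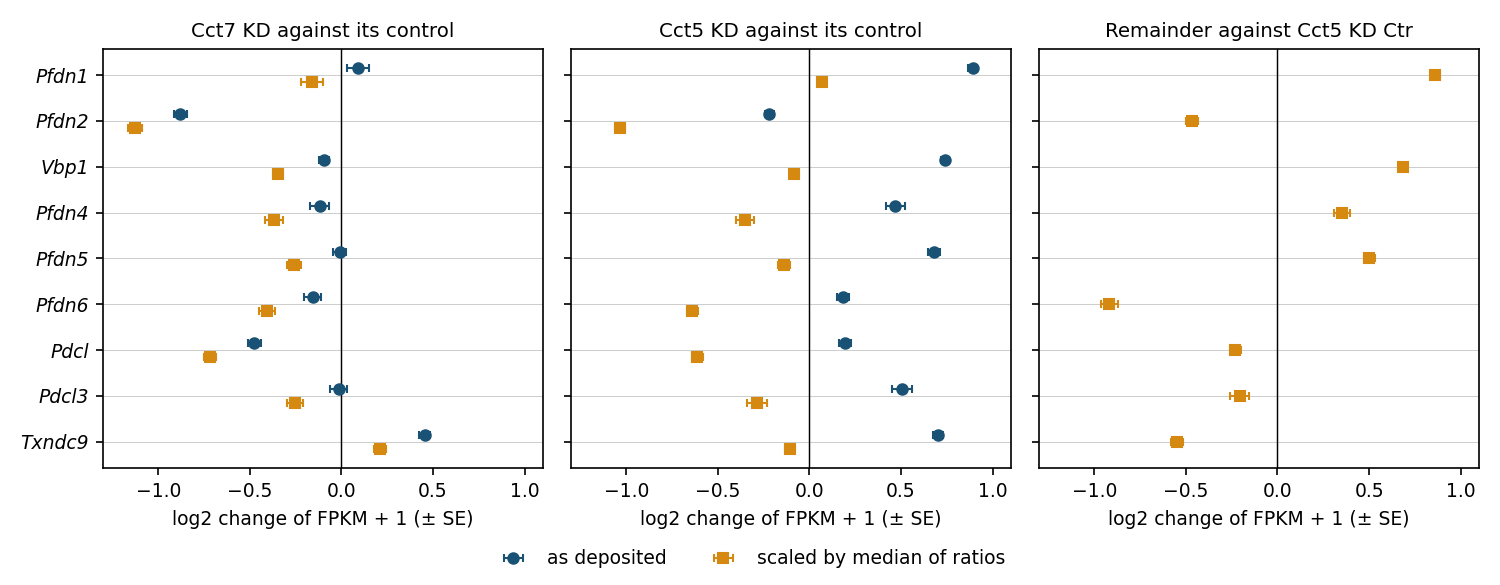
Log2 change of FPKM + 1 (x axis) with its standard error for the 9 genes (y axis), in Cct7 KD, Cct5 KD and the remainder, each against its control, as deposited (circles) and scaled by median of ratios (squares). In Cct5 KD as deposited 8 of 9 genes lie right of 0, and with scaling 8 of 9 lie left of it; in the remainder 4 lie right and 5 left.

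In Cct5 KD as deposited 8 of 9 members were higher and 1, Pfdn2, was lower, but with median-of-ratios scaling 1, Pfdn1, was higher and 8 were lower. All 9 passed in limma either way. The background as deposited was 89.3% of 14179 genes, 78.0% higher and 11.3% lower, and with scaling it was 81.4%, 37.7% higher and 43.7% lower. Scaling moved the median log2 change of all genes from 0.68 to -0.05 and that of the members from 0.50 to -0.29, and the share of higher genes among those changed from 87.3% to 46.3%. Members did not overlap between the 2 groups in 9 of 9 cases as deposited, against 94.3% of all genes. The members' changes are therefore read against the median of all genes and beside the remainder.

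Pfdn2 was the member furthest below the other genes in Cct5 KD as deposited. It stood at 65.9 and 67.7 FPKM in the controls and 57.2 and 57.3 FPKM in Cct5 KD, below all 4 controls, although FPKM totals were higher in Cct5 KD. The log2 change was -0.22 (SE 0.0246; limma adjusted p = 3.0e-04), which is 0.90 below the median of all genes, and 9.93% of genes had a lower change. It was -1.03 with median-of-ratios scaling, -0.80 with a common total and -0.47 in the scaled remainder, all past the threshold in limma. In that remainder 25.9% of genes had a lower change, and Pfdn6 (-0.92) and Txndc9 (-0.55) lay below Pfdn2. Because 68.9% and 67.1% of the Pfdn2 value in Cct5 KD is the multiple of Cct7 KD, the Cct5 KD and Cct7 KD values for this gene are not separate observations.

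Pfdn1 stood at the other end. It was at 78.3 and 77.7 FPKM in the controls and 143 and 147 FPKM in Cct5 KD. The log2 change was 0.89 as deposited, 0.07 with median-of-ratios scaling, 0.31 with a common total and 0.86 in the scaled remainder, higher in all 4 and past the threshold in limma in each. The median-of-ratios value had the weakest support (SE 0.0227; adjusted p = 0.031).

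Vbp1, Pfdn5 and Pfdn4 were higher as deposited, with log2 changes of 0.74, 0.68 and 0.47, and lower with median-of-ratios scaling, at -0.08, -0.14 and -0.35. Vbp1 stood at 98.9 and 99.96 FPKM in the controls and 168 and 166 FPKM in Cct5 KD as deposited. Pfdn5 as deposited lay on the median of all genes, with 49.9% of genes below it. Pfdn6, at 96.8 and 100.2 FPKM in the controls and 109 and 114 FPKM in Cct5 KD, had a log2 change of 0.18 as deposited and -0.64 with scaling. Its change was 0.50 below the median of all genes.

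The phosducin-like genes showed the same dependence. Txndc9 went from 28.1 and 27.6 FPKM to 46.0 and 45.8 FPKM, with a log2 change of 0.70 as deposited and -0.11 with median-of-ratios scaling. Pdcl went from 34.9 and 33.6 FPKM to 38.7 and 39.9 FPKM, 0.19 as deposited and -0.61 with scaling. Pdcl3 went from 18.7 and 16.8 FPKM to 25.0 and 26.2 FPKM, 0.50 as deposited and -0.29 with scaling. Against the median of all genes as deposited, Pdcl lay 0.48 below, Pdcl3 0.17 below and Txndc9 0.02 above.

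The remainder gave another pattern. After median-of-ratios scaling against Cct5 KD Ctr, 4 prefoldin genes were higher (Pfdn1 0.86, Vbp1 0.69, Pfdn5 0.50 and Pfdn4 0.35 in log2) and 5 members were lower (Pfdn6 -0.92, Txndc9 -0.55, Pfdn2 -0.47, Pdcl -0.23 and Pdcl3 -0.21), all past the threshold in limma. The background was 84.9% of 11682 genes, 42.1% higher and 42.8% lower. Both alpha-type subunits were thus higher and all 3 phosducin-like genes lower. Before scaling the remainder held 20.4 and 18.9 FPKM of Pfdn6 and 55.1 and 54.3 FPKM of Pfdn1. The controls held 96.8 and 100.2 FPKM of Pfdn6 and 78.3 and 77.7 FPKM of Pfdn1. The FPKM totals were 214123 and 213575 in the remainder and 495553 and 496684 in those controls. Pfdn1 was thus lower before scaling, though 0.86 higher after it. The Pfdn6 level was the second in both controls and in Cct7 KD, the fourth in Cct5 KD and the fifth in the remainder. The multiple of Cct7 KD made up the largest parts of the Cct5 KD value for Txndc9 (84.8% and 84.3%) and Pfdn6 (81.3% and 83.5%), and the smallest for Pfdn1 (61.6% and 63.2%) and Vbp1 (63.5% and 62.6%). Whether the remainder is a library of its own was not tested; 99.0% and 99.1% of its low values were whole multiples of the value of 1 fragment.

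Ratios within a library do not depend on how libraries are scaled, so the make-up of the prefoldin transcripts was compared next. The size of each share still rests on the gene lengths used. Pfdn2 made up 14.2% and 14.3% of the summed prefoldin FPKM in Cct7 KD Ctr, but 8.72% and 8.26% after Cct7 knockdown. It made up 13.9% and 14.1% in Cct5 KD Ctr, then 8.46% and 8.32% in the Cct5 KD libraries and 7.95% and 8.43% in the remainder. The share was thus lower in both knockdowns and in the remainder than in all 4 controls. An exact permutation test of 2 libraries against 2 cannot go below p = 0.333 (two-sided), so the shares are described and not tested.

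Pfdn1 took a larger share in the knockdowns, 16.1% and 17.3% against 19.5% and 19.98% for Cct7 KD and 16.5% and 16.2% against 21.2% and 21.4% for Cct5 KD, with 24.6% and 24.3% in the remainder. Pfdn6 overlapped in Cct7 KD, at 20.02% and 20.3% in the controls and 19.7% and 20.5% in the knockdown. It was lower in Cct5 KD, at 16.2% and 16.6% against 20.4% and 20.9%, and stood at 9.13% and 8.44% in the remainder. The Pfdn4 shares overlapped between knockdown and control in both comparisons. The alpha-type subunits together held larger shares without overlap, 37.2% and 36.5% against 40.1% and 38.4% for Cct7 KD and 35.3% and 36.0% against 41.5% and 40.6% for Cct5 KD. Shares sum to 100%, so a lower Pfdn2 share by itself raises the others. In Cct7 KD as deposited neither alpha-type gene rose in FPKM. The share of Vbp1 alone overlapped there, at 22.6% and 21.5% in the controls and 23.6% and 22.3% in the knockdown. In the remainder they reached 44.4% and 45.1%. The ratio of the highest to the lowest subunit was 2.70 in both Cct7 KD libraries and 2.93 and 2.89 in Cct5 KD, and 3.44 and 3.29 in the remainder.

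**Figure D3:**
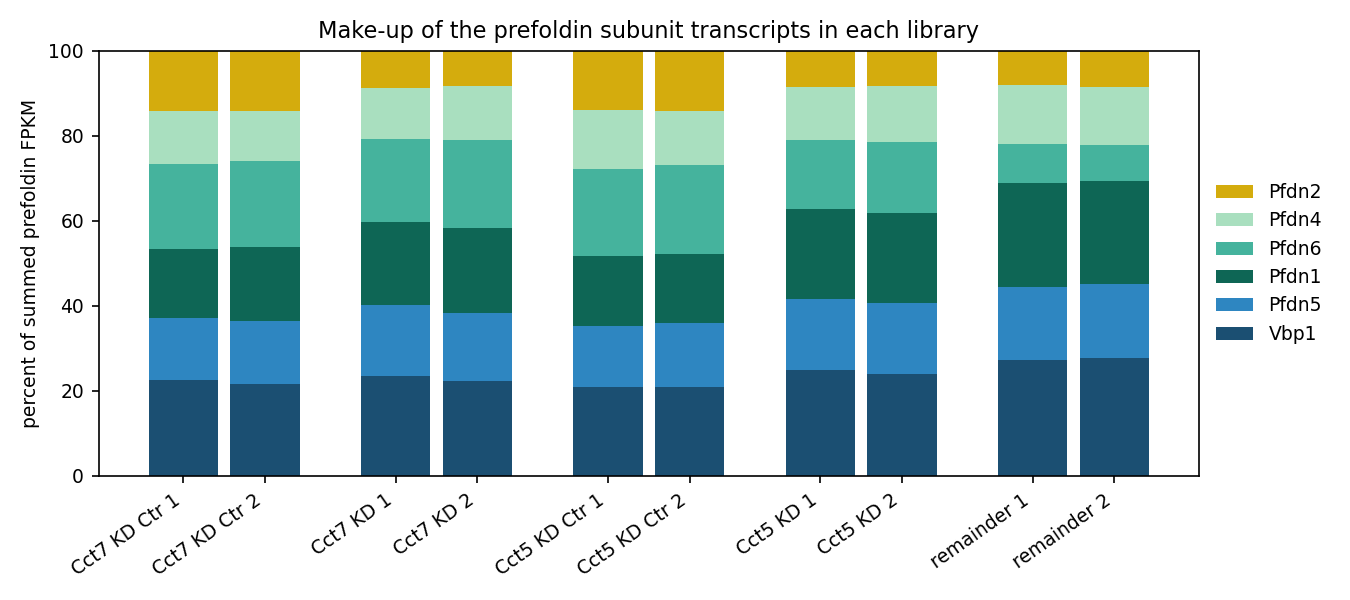
Percent of the summed prefoldin FPKM (y axis) held by each of the 6 subunit genes in each of the 8 libraries and the remainder (x axis). Pfdn2 holds 13.9% to 14.3% in the 4 controls and 7.95% to 8.72% in the knockdown libraries and the remainder; Pfdn6 holds less in Cct5 KD and least in the remainder.

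Among the 3 phosducin-like genes, Pdcl held 45.3% and 45.2% of their summed FPKM in Cct7 KD Ctr, but 32.2% and 32.8% after Cct7 knockdown, and Txndc9 went from 32.1% and 31.8% to 45.4% and 44.1%. The pair thus changed places in FPKM, an order that rests on the gene lengths used. Pdcl3 held 22.4% and 23.2%, overlapping the 22.5% and 23.0% of the controls. In the Cct5 KD comparison Pdcl was at 42.7% and 43.1% in the controls and 35.3% and 35.7% in the knockdown. In the remainder Pdcl held 46.4% and 46.1% and Txndc9 29.4% and 29.7%, so the exchange was not seen there.

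The summed transcripts of the chaperonin were lower relative to those of prefoldin in the knockdowns. The 7 CCT subunit genes other than Cct5 and Cct7 summed to 4.84 and 4.72 times the prefoldin sum in Cct7 KD Ctr, but 4.11 and 3.96 times after Cct7 knockdown. The ratio was 4.67 and 4.59 in Cct5 KD Ctr, then 3.69 and 3.59 in the Cct5 KD libraries and 2.84 in both replicates of the remainder. In neither comparison did knockdown and control libraries overlap. The sum hides subunits that went the other way. In Cct7 KD Tcp1 (313.6 and 305.8 FPKM) and Cct8 (344.3 and 344.2 FPKM) stood above their controls (296.9 and 302.2, and 316.2 and 321.8 FPKM). Cct2, Cct3, Cct4, Cct6a and Cct6b stood below theirs, with Cct4 going from 433.5 and 440.1 to 167.9 and 168.6 FPKM. The summed phosducin-like FPKM was 17.3% and 17.0% of the prefoldin sum in Cct7 KD Ctr, 19.03% and 18.8% after Cct7 knockdown, 17.2% and 16.3% in Cct5 KD Ctr and 16.2% in both Cct5 KD libraries. In the remainder it was 10.6% and 10.8%.

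Promoter sequences are shown for 3 of the 4 members that fell in Cct7 KD as deposited, Pdcl, Vbp1 and Pfdn6, because they differ in base composition and in the short motifs they hold. The letters are the 250 bases before the RefSeq start site, in GRCm38.p6, 5′ to 3′ on the gene's strand. Capitals mark matches on either strand to CACGTG (E-box), CCGGAA (ETS core), GGGCGG (GC box), CCAAT, the NRF1 palindrome and TGACG (a core of the CRE), none of which overlap here. The windows are chr2:37359333-37359582 (- strand) for Pdcl, chrX:75514047-75514296 (+ strand) for Vbp1 and chr17:33940344-33940593 (- strand) for Pfdn6. For Pfdn2, the fourth, the 23 bases between the annotated starts of Pfdn2 and its divergent neighbour Nit1 (chr1:171345647-171345669, + strand) are shown in lower case.
Pdcl: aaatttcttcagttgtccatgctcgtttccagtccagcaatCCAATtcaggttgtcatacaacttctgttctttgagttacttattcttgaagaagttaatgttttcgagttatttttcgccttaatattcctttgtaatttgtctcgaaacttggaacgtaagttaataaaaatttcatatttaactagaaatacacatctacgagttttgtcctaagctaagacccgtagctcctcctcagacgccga
Vbp1: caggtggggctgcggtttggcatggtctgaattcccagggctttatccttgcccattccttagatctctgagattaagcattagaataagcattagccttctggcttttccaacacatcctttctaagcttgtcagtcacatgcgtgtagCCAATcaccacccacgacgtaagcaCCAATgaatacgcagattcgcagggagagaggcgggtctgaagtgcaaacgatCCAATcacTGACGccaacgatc
Pfdn6: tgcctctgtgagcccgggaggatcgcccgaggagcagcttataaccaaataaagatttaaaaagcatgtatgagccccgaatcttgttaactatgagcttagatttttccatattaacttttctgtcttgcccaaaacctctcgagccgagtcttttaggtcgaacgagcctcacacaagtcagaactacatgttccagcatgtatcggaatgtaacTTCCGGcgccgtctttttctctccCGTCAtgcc
Pfdn2 to Nit1: gtaaccccccggccggatgtgac
The Pdcl window is 35.6% G and C and holds 1 CCAAT. That of Vbp1 is 49.6% and holds 3 CCAAT and 1 TGACG, and that of Pfdn6 is 46.4% and holds 1 CCGGAA and 1 TGACG. Among the windows not printed, Txndc9 holds 5 of the 6 motifs, the NRF1 palindrome excepted, and Pfdn2 holds 2 GGGCGG and 1 TGACG. Pfdn4 holds 1 CCGGAA and 1 GGGCGG, and Pfdn5 none. The Txndc9 window lies inside the gene as annotated in GENCODE vM21, and all its 250 bases are annotated as untranslated region. Of the Pfdn2 window 227 bases are annotated as untranslated region too. Of 32851 windows of the same length, 6.02% hold CACGTG, 12.03% CCGGAA, 32.7% GGGCGG, 33.8% CCAAT, 0.782% the NRF1 palindrome and 17.8% TGACG; a match is a description of letters. Of the 9 members 7 matched the promoter table, and Pfdn1 and Pdcl3 had no entry.

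The members lie on 6 chromosomes, and all are protein coding in GENCODE vM21 (GRCm38, the same as mm10). Pfdn2 spans chr1:171345670-171359254 (+), Txndc9 chr1:37985189-37997893 (-), Pdcl3 chr1:38985608-38997238 (+) and Pdcl chr2:37350074-37359332 (-). Pfdn4 spans chr2:170496428-170519123 (+), Pfdn5 chr15:102326116-102331873 (+), Pfdn6 chr17:33938821-33940343 (-) and Vbp1 chrX:75514299-75534942 (+), and Pfdn1 is on chromosome 18.

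The nearest protein-coding neighbours gave values of both signs. Nit1, a nitrilase family gene on the opposite strand whose start is 23 bases from that of Pfdn2, stood at 20.8 and 21.8 FPKM in the controls and 20.2 and 20.8 FPKM after Cct7 knockdown. Its log2 change was -0.05 (limma adjusted p = 0.276), beside -0.88 for Pfdn2; with median-of-ratios scaling the values were -0.29 and -1.13. Eif5b, a translation initiation factor 116 bases from Txndc9 on the other strand, changed by -0.16 (limma adjusted p = 0.0043) while Txndc9 changed by 0.45. Wdr46, a nucleolar protein gene 316 bases from Pfdn6, fell with it, by -0.28 in Cct7 KD (limma adjusted p = 5.2e-04) and by -2.20 in the scaled remainder, beside -0.92 for Pfdn6. Cystm1, 578 bases from Pfdn1, rose by 1.23 in Cct7 KD (limma adjusted p = 9.2e-06).

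Some members share sequence with other genes, and how such reads were counted is not stated in the labels. Klhdc9 on the opposite strand shares 535 bases with Pfdn2 and stood at 2.50 and 2.28 FPKM in the controls and 0.71 and 0.99 FPKM after Cct7 knockdown. Its levels were small beside those of Pfdn2. Gm37154, not annotated as protein coding, lies within Pfdn2 on the same strand. It went from 3.19 and 2.46 FPKM in Cct7 KD Ctr to 0.93 and 1.03 FPKM in Cct7 KD. Other overlapping genes of this kind are Gm16796 (Pfdn4), CR974462.1 (Pfdn6) and Gm37309 (Pdcl3), at most 0.185, 4.11 and 1.99 FPKM in any library. Myg1 shares 165 bases with the end of Pfdn5 on the same strand, at 13.3 and 13.4 FPKM in Cct7 KD Ctr. Cyp24a1 overlaps Pfdn4 on the other strand and was at most 0.113 FPKM in any library. The processed pseudogene Gm7868 matches Txndc9 over 681 bases at 98.7% identity and stood at 0.07 to 1.09 FPKM, and the pseudogenes Gm5644 (Pfdn5, 97.0%) and Gm13612 (Pfdn6, 96.7%) were not listed, so reads of these members could be split between copies.

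Around the members, the other genes of the folding pathway were counted in limma. Their counts stand beside shares of all genes of 49.3% higher and 32.0% lower in Cct7 KD as deposited, 37.1% and 44.0% with scaling, 78.0% and 11.3% in Cct5 KD as deposited, 37.7% and 43.7% with scaling, and 42.1% and 42.8% in the remainder. Of the 9 CCT subunit genes 1 rose, 7 fell and 1 did not pass in Cct7 KD, led by Cct7 (-4.02), Cct4 (-1.37) and Cct6b (-0.97), with a median of -0.40 beside 0.15 for all genes; with median-of-ratios scaling all 9 fell. In Cct5 KD 5 rose and 4 fell as deposited, all 9 fell with scaling, and in the remainder 2 of 8 tested rose and 5 fell. These counts and medians include the targeted genes. Cct5 had no remainder, and Cct7 was among those higher in it, at 452.6 and 446.5 FPKM scaled against 170.5 and 170.2 FPKM scaled in Cct5 KD Ctr. Of the 7 genes of the prefoldin-like and R2TP complexes, which assemble large machines such as RNA polymerase, 3 fell in Cct7 KD and 4 did not pass. They were the AAA+ ATPases Ruvbl2 (-1.15) and Ruvbl1 (-0.64) and the scaffold Uri1 (-0.24). The 3 of 7 that fell are a share near the 32.0% of all genes. With median-of-ratios scaling 6 fell; in Cct5 KD 5 rose and 2 fell as deposited, 1 rose and 6 fell with scaling, and in the remainder 1 rose and 5 fell. Pdcl2, a testis-enriched phosducin-like gene, went from 5.64 and 6.03 FPKM to 3.34 and 3.14 FPKM in Cct7 KD, a log2 change of -0.69; its relative Pdc was not listed.

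All 4 tested genes for G protein beta subunits, which Pdcl helps to assemble, rose in Cct7 KD, led by Gnb4 (1.74), Gnb2 (1.07) and Gnb1 (0.53), against 49.3% of all genes higher; Gnb3 was not listed for Cct7 KD and was at most 0.123 FPKM in the Cct5 KD and Cct5 KD Ctr libraries, too low to be tested. Gnb2 went from 20.8 and 19.3 FPKM to 42.5 and 43.6 FPKM. All 4 rose as well with median-of-ratios scaling, in Cct5 KD as deposited and scaled, and in the remainder, with list medians of 0.80 in Cct7 KD and 0.84 in the remainder. In Cct5 KD as deposited that count stands beside 78.0% of all genes higher. Of the 7 tubulin cofactors, which act on tubulin after CCT, 4 rose, 2 fell and 1 did not pass in Cct7 KD, led by Tbcc (0.86), Tbce (0.44) and Tbcd (-0.36). With median-of-ratios scaling 2 rose and 3 fell. In Cct5 KD all 7 rose as deposited, 3 rose and 3 fell with scaling, and 3 rose and 3 fell in the remainder, beside the shares of all genes given above.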

How the data were processed

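RNA of 8 libraries was extracted with Trizol, poly-A selected and prepared with a dUTP kit that marks strand, and sequenced in paired ends, per the labels' protocols. The authors deposited FPKM values per gene, 1 table per knockdown with its control, in 21055 and 20909 entries; genome build mm10 and HTSeq are named in the submitters' processing notes. Aligner, annotation, gene lengths and strand setting are not named in the labels or files. From the steps between low FPKM values, the depth of 6 libraries came out at 18900000 to 54800000 fragments, with at least 99.1% of the low values whole (tolerance 0.05). No depth could be read for Cct5 KD, where 68.7% and 50.3% were whole. No count test was run, since FPKM are not counts.

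Identifiers listed 2 times (8 and 6) were left out, and 41 had no symbol. log2(FPKM + 1) was tested, where a gene's mean over the libraries reached 1 FPKM, with limma 3.58.1 (R 4.3.3; empirical Bayes with trend, two-sided), on the 4 libraries of each comparison without scaling, with Benjamini-Hochberg adjustment over all genes tested and a threshold of 0.05. A fold on this scale understates the change of low genes. The fit was tested on simulated data. The common ratio of 1.125 between Cct5 KD and Cct7 KD was held by 449 and 427 genes exactly (relative tolerance 1e-06), and the remainder was scaled by median of ratios against Cct5 KD Ctr. Near copies were sought with blastn 2.17.0. Promoters came from RefSeq (GRCm38.p6).

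The 9 members, the gene lists and the tests were chosen with earlier results of these data known. Named beside the members are Cct5 and Cct7, and up to 3 genes per pathway list with the largest change among those past the threshold in Cct7 KD. Also named are genes overlapping a member, protein-coding genes within 1 kb, and for each member the gene with the most similar profile. Alternatives were median-of-ratios scaling, a common FPKM total, no filter, a pseudocount of 0.1, a replicate block, all 8 libraries in 1 fit, each library left out, and the remainder. Replicate numbers did not pair the samples.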

Additional observations from a re-analysis of the deposited data

Results flagged for a closer look

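In 4 members the libraries of the 2 knockdowns lay on opposite sides of their own controls as deposited, and the difference between the knockdowns was not tested. In Cct5 KD as deposited the log2 changes were 0.74 for Vbp1, 0.47 for Pfdn4, 0.18 for Pfdn6 and 0.19 for Pdcl, while both Cct7 KD libraries of each were below both of their controls. FPKM totals were higher in Cct5 KD, and with median-of-ratios scaling all 4 values were below 0. In the scaled remainder Vbp1 at 0.69 and Pfdn4 at 0.35 were again above the controls. Txndc9 was above its controls in both knockdowns as deposited. In Cct5 KD it was lower with median-of-ratios scaling (-0.11) and in the scaled remainder (-0.55). The difference of these values from the 0.45 in Cct7 KD was not tested.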

How the results depend on the processing

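Scaling decided most directions in Cct5 KD. With median-of-ratios scaling the members higher went from 8 to 1 and those lower from 1 to 8, and values turned to -0.082 (Vbp1), -0.35 (Pfdn4), -0.14 (Pfdn5), -0.64 (Pfdn6), -0.61 (Pdcl), -0.29 (Pdcl3) and -0.11 (Txndc9). With a common FPKM total 4 were higher and 3 lower, and Pfdn4 (-0.11), Pfdn6 (-0.40), Pdcl (-0.38) and Pdcl3 (-0.056) turned. In the remainder 4 were higher and 5 lower, and Pfdn6 (-0.92), Pdcl (-0.23), Pdcl3 (-0.21) and Txndc9 (-0.55) turned. In Cct7 KD median-of-ratios scaling gave 7 members lower in place of 4 and turned Pfdn1 (-0.16), and a common total gave 2 higher and 2 lower and turned Pfdn5 (0.053) and Pdcl3 (0.045). Leaving out each library gave 1 to 2 members higher, and ranges of -0.052 to 0.034 for Pfdn5 and -0.053 to 0.023 for Pdcl3. Between the controls the genes called went from 0 to 20 with a common total and to 444 with all 8 libraries in 1 fit, where 1 member (Txndc9) was higher. Leaving out each library gave 0 to 103, the highest without replicate 1 of Cct7 KD Ctr and 19 without its replicate 2. There Pfdn1 ranged from -0.040 to 0.12 and Pdcl3 from -0.075 to 0.069, and median-of-ratios values were 0.0080 for Vbp1 and 0.012 for Pdcl3. The Pfdn4 share difference ranged from -0.17 to 0.71 percentage points in Cct7 KD and from -1.07 to 0.24 in Cct5 KD (0.59 in the remainder), and that of Pfdn6 from -0.47 to 0.35 in Cct7 KD. The cause of these turns was not tested, beyond the alternatives' own construction.

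With the replicate number as a block, limma called 10968 genes in Cct7 KD (11055 without), 12740 in Cct5 KD (12662 without) and 0 between the controls, and no member's call changed. Same-numbered libraries of each knockdown and its control, and of the 2 controls, did not deviate together (correlations -0.04, -0.01 and 0.04 over 13840 genes). That correlation was not computed for Cct5 KD and Cct7 KD, whose same-numbered libraries are tied by the multiple. With 2 libraries a group, each library left out leaves a lone sample that is assumed to vary like the other groups. Depth is unknown for Cct5 KD, which limits what its low values can show.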

Other observations

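For each member the gene with the most similar profile over the 8 libraries was sought among 9276 genes, by the root mean square difference of centred log2(FPKM + 1). The nearest were Sumo2 for Pfdn2 (0.0213), Mynn for Vbp1 (0.0197), Nufip1 for Pdcl (0.0212), Gm10130 for Txndc9 (0.0181) and Scyl3 for Pfdn6 (0.0236). They were Prdx3 for Pfdn5 (0.0302), Zfp866 for Pdcl3 (0.0295), Fdft1 for Pfdn1 (0.0394) and Tyw5 for Pfdn4 (0.0571). Sumo2, which encodes a ubiquitin-like modifier, went from 195 and 205 FPKM in Cct7 KD Ctr to 109 and 111 FPKM in Cct7 KD. No member was the nearest gene of another: the closest members were Vbp1 and Pfdn5 (0.0488), with Pfdn5 ranked 32 from Vbp1 and Vbp1 ranked 21 from Pfdn5. Pfdn2 stood furthest from the other members, its nearest, Pdcl, at 0.211 and ranked 1436. The 8 libraries share the tie between Cct5 KD and Cct7 KD, so these are descriptions over fewer independent points.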
